A study of Mus musculus with 18 samples.

Results

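The transcription factor NRF2 and the glutathione transferases form the core of the defence of a cell against reactive chemicals. In unstressed cells NRF2, encoded by Nfe2l2, is held by KEAP1 and passed to a ubiquitin ligase for destruction. When the cysteines of KEAP1 are modified, NRF2 persists, pairs with a small MAF protein and binds antioxidant response elements in the DNA of its target genes. Those targets reduce peroxides, make glutathione and NADPH, break down haem, reduce quinones and carbonyls, and pump conjugates out of the cell. Glutathione transferases join glutathione to electrophiles, and several of their genes are NRF2 targets in rodent liver.

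The genes described here are 49 of the 55401 genes in the deposited expression values. They were chosen by symbol as known NRF2 targets and glutathione transferases, 26 antioxidant genes and 23 conjugation genes, and all 49 were found. The choice was made with earlier results of these data known. RNA came from liver, lung and colon of C57BL/6N mice aged 7 weeks, given by mouth either RECTAS at 100 mg/kg in 0.5% carboxymethyl cellulose (CMC) or 0.5% CMC alone, at an interval of 4 h. RECTAS is a small molecule that alters pre-mRNA splicing. Tissues were taken 8 h after the first dose, and 3 libraries were made for each tissue and treatment, which gave 6 groups and 18 libraries. Levels are in TPM, the share of all transcripts after adjustment for gene length, so levels of different genes can be set side by side.

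Marker genes were read in every library as a check of the tissue. The summed level of 10 hepatocyte markers was 104644 to 123824 TPM in the liver libraries and at most 1548 TPM in any other, that of 8 alveolar type 2 markers was 36356 to 45002 TPM in lung, and that of 8 colonocyte markers was 14279 to 33988 TPM in colon. How many reads lie behind a value cannot be recovered from TPM. Whether a group's libraries are from different animals is not in the labels, so each p-value measures the spread between these samples only. In bulk tissue, fewer cells of a type and less RNA per cell cannot be told apart. Differences are RECTAS minus vehicle, or one tissue minus another, on the log2(TPM + 1) scale, where the changes of weakly expressed genes come out too small. A gene counted as changed had a Benjamini-Hochberg adjusted p under 0.05 in a limma fit over all genes tested.

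Promoter windows are printed for 5 members named in the liver results below. Srxn1 and Txnrd1 are 2 peroxide defence genes that stood higher under RECTAS, and Gclm had overlapping groups. Gstp1 and Gstp2 are neighbouring near copies whose means were 1.62-fold and 4.02-fold higher under RECTAS. The 2 were not tested against each other, and shared reads could have been divided between them. Whether the letters bear on the liver differences was not tested. The sequences are from RefSeq, build GRCm38.p6, each 250 bases before and 50 bases after a transcription start, 5′ to 3′ on the strand of the gene. Capitals mark matches to TGACNNNGC, the core of the antioxidant response element, read on either strand (GCNNNGTCA on the other). The Srxn1 window is chr2:152105274-152105573 (plus strand), the printed Txnrd1 window chr10:82858956-82859255 (plus) and the Gclm window chr3:122245307-122245606 (plus). The Gstp1 window is chr19:4037863-4038162 (minus) and the Gstp2 window chr19:4042172-4042471 (minus).
Srxn1: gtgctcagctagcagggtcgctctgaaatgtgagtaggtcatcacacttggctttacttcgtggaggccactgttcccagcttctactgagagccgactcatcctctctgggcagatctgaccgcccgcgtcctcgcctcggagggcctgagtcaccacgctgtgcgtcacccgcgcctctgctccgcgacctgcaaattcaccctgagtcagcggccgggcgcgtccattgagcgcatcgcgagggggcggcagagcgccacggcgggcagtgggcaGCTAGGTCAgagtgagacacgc
Txnrd1: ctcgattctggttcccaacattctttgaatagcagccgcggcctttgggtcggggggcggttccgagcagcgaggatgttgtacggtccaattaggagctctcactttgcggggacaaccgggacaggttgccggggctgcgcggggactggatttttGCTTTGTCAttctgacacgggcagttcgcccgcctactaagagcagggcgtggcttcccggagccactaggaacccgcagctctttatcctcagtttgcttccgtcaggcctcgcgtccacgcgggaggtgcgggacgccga
Gclm: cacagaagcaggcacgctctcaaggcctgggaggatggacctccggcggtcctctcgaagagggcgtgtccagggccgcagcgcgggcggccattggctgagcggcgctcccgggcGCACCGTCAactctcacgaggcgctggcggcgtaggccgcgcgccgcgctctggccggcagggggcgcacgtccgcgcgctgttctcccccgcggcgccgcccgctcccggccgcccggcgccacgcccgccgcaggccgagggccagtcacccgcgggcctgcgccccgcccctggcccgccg
Gstp1: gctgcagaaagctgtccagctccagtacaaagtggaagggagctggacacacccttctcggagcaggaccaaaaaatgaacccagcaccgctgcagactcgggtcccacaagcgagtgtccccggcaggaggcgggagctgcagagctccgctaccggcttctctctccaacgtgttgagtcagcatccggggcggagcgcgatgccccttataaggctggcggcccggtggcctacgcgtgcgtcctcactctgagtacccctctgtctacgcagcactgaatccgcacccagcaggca
Gstp2: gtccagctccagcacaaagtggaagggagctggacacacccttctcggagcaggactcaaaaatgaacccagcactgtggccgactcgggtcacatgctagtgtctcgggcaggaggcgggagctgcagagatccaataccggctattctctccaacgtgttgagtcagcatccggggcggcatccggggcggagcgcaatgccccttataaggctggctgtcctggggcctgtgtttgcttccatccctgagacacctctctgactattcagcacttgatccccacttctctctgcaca

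The match began at position 29 after the start in Srxn1, at position -92 in Txnrd1 and at position -134 in Gclm, counted from the transcription start. Txnrd1 has further windows at chr10:82833701-82834000 and chr10:82860091-82860390, which held no match and are not printed. RefSeq windows were matched for 43 of the 49 members, 57 windows in all, since some genes have more than 1 start. The motif was present in 10 of 28 windows of antioxidant genes (35.7%) and in 4 of 29 windows of conjugation genes (13.8%), against 12.4% of all 32851 windows of the same length. Besides the 3 printed above, the antioxidant genes with a match were Prdx1, Pgd, Me1, G6pdx, Abcc2 and Abcc4, and the conjugation genes were Gsta3, Gstm5, Gstm7 and Mgst1. In Prdx1 and Me1 the letters were the same, TGACTCAGC. The windows of Gstp1 and Gstp2 held no match to TGACNNNGC and had the same base at 242 of 316 aligned positions (76.6%). Both held TGAGTCAGC, as did the Srxn1 window outside its marked match. Those letters have TGAG in place of TGAC and were not searched for in other windows. A match describes letters in a window and shows no binding.

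Under vehicle, the antioxidant genes were most abundant in colon and the conjugation genes in liver. The 26 antioxidant genes summed to 3422, 3461 and 3342 TPM in the colon libraries, 2207, 2414 and 2356 TPM in liver and 1905, 1660 and 1752 TPM in lung, and the 3 tissues did not overlap. The 23 conjugation genes summed to 7990, 7817 and 7543 TPM in liver, 3061, 2698 and 2799 TPM in lung and 2721, 3300 and 3248 TPM in colon. Liver lay far above the others, while lung and colon overlapped. In each tissue a few genes carried the sums. Prdx1, a peroxiredoxin, made up 38.0% of the antioxidant sum in liver, and Mgst1, a membrane-bound microsomal transferase, made up 43.1% of the conjugation sum there. The next most abundant antioxidant genes in liver were Txn1, Ephx1, Abcc2 and Gclm, at mean levels from 136 to 215 TPM, and the next conjugation genes Gstm1, Gsta3, Gstz1 and Gstp1, from 436 to 1153 TPM. In lung the leading genes were Prdx1, Txn1, Ephx1, Taldo1 and Tkt among the antioxidant genes, and Mgst1, Gstm1, Gstp1, Gstm2 and Gsta3 among the conjugation genes. In colon they were Txn1, Prdx1, Taldo1, Cbr1 and Tkt, and Mgst3, Gstp1, Gsto1, Mgst2 and Mgst1.

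**Figure D1:**
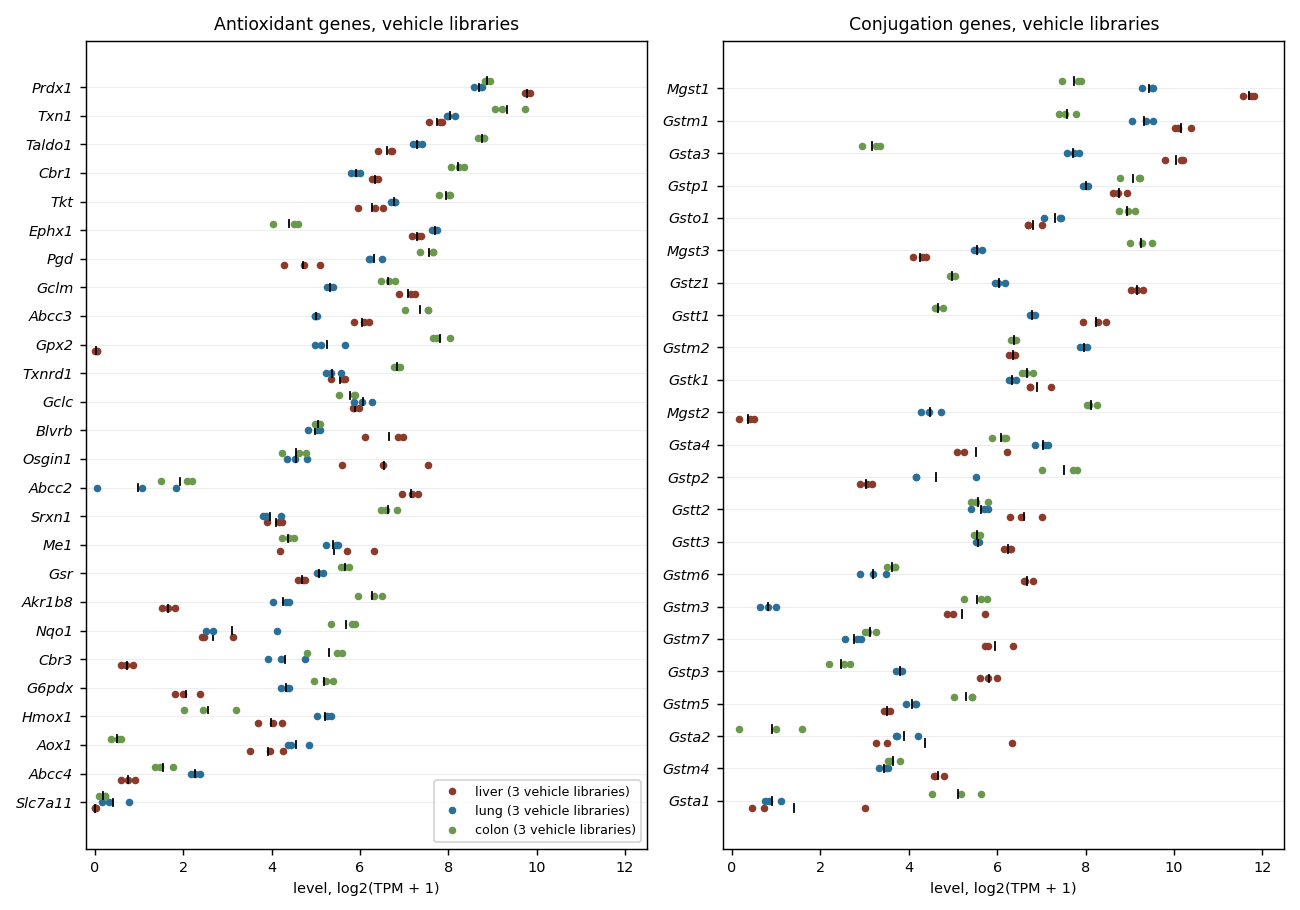
Level of every member in the 9 vehicle libraries, as log2(TPM + 1), with 1 point per library, coloured by tissue, and a black tick at the mean of each 3. Colon was highest for 14 of 26 antioxidant genes, and liver for 13 of 23 conjugation genes.

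Nearly every member differed between tissues, as most genes did. Between liver and lung, 40 of 48 members tested changed, 21 of them higher in liver, where 88% of all 16715 genes tested changed (13.5% higher in liver and 74.5% lower). Between liver and colon 41 of 48 changed, 20 higher in liver (79.9% of all genes, 16.1% higher and 63.8% lower), and between lung and colon 39 of 48 changed, 13 higher in lung (75.7% of all genes, 51% higher and 24.7% lower). The share of members that changed was thus close to that of all genes. The median member stood 0.15 higher in liver than in lung and 0.16 lower in liver than in colon (log2), where the median gene was 1.10 and 0.68 lower in liver.

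Among the peroxide and thioredoxin genes, Srxn1, which encodes the sulfiredoxin that repairs overoxidised peroxiredoxins, stood at 88.6, 113 and 94.9 TPM in colon, 13.8, 17.1 and 17.9 TPM in liver and 17.5, 13.0 and 13.7 TPM in lung. Colon was 6.09-fold above liver, whereas liver and lung overlapped (log2 difference 0.14, adjusted p = 0.386 by limma). Txnrd1, cytosolic thioredoxin reductase, followed the same order, at 107 to 119 TPM in colon, 39.7 to 49.3 TPM in liver and 36.3 to 46.5 TPM in lung. Gpx2, a glutathione peroxidase of the gut lining, was 261, 212 and 199 TPM in colon and 49.8, 30.6 and 33.8 TPM in lung, and no liver library exceeded 0.12 TPM. Prdx1 was the exception in its group, highest in liver at 849, 878 and 926 TPM against 453 to 493 TPM in colon.

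For glutathione supply, Gclc, the catalytic subunit of glutamate-cysteine ligase, was the most even antioxidant gene, at 56.0 to 61.6 TPM in liver, 57.5 to 75.8 TPM in lung and 45.3 to 58.6 TPM in colon. None of its 3 tissue differences passed the threshold. Its partner Gclm, the modifier subunit, was 3.50-fold higher in liver than in lung, at 117, 150 and 141 against 41.0, 36.9 and 38.7 TPM. Gsr, glutathione reductase, was highest in colon. Slc7a11, the cystine importer, was near 0 throughout: no library exceeded 0.71 TPM, and it was not tested in any comparison.

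The genes of the pentose phosphate pathway, G6pdx, Pgd, Taldo1 and Tkt, were all highest in colon and lowest in liver. G6pdx, whose enzyme commits glucose 6-phosphate to the pathway, was 11.1-fold higher in colon than in liver (30.0, 41.2 and 36.8 against 2.51, 4.23 and 2.97 TPM). Me1, the cytosolic malic enzyme, did not follow them: liver held 17.3, 79.0 and 51.5 TPM, lung 44.7, 36.5 and 43.1 TPM and colon 19.97, 21.6 and 17.9 TPM. Its liver libraries spanned the range of both other tissues.

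Genes for haem breakdown, carbonyl reduction and export were more restricted. Hmox1, haem oxygenase 1, was highest in lung at 39.4, 37.0 and 31.6 TPM, and Blvrb, biliverdin reductase B, in liver at 68.4, 125 and 115 TPM. Nqo1, a quinone reductase, was 9.17-fold higher in colon than in liver, and Akr1b8, an aldo-keto reductase, 35.2-fold higher. Aox1, an aldehyde oxidase, stood at 27.9, 20.7 and 19.8 TPM in lung and 10.5, 18.2 and 14.6 TPM in liver, and at most 0.71 TPM in any colon library. Ephx1, microsomal epoxide hydrolase, was 205 ± 8.45 TPM (SD, n = 3) in lung, 155 ± 10.5 TPM in liver and 20.2 ± 4.20 TPM in colon. Of the exporters, Abcc2, which carries conjugates into bile, was 49.0-fold higher in liver than in colon, while Abcc3, which works on the opposite face of the cell, was 2.54-fold higher in colon than in liver.

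Members of 1 transferase class often went in opposite directions between tissues. In the alpha class, Gsta3 was the liver gene, at 1175, 1145 and 894 TPM against 229, 190 and 211 TPM in lung and 6.65, 9.12 and 8.52 TPM in colon. Gsta1 was instead highest in colon (21.9, 49.0 and 35.5 TPM), and Gsta4 in lung (135, 114 and 141 TPM). In the mu class, Gstm1, Gstm4, Gstm6 and Gstm7 were highest in liver, Gstm2 in lung, and Gstm3 and Gstm5 in colon. Gstm3 stood at 51.9, 30.9 and 28.1 TPM in liver and 37.1, 53.2 and 48.4 TPM in colon, which overlapped, and below 1 TPM in each lung library.

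The pi class held near copies at different levels. Gstp1 was 436, 589 and 600 TPM in colon, 486, 425 and 395 TPM in liver and 245, 267 and 256 TPM in lung. Gstp2 was 128, 222 and 209 TPM in colon but 6.40, 7.30 and 7.95 TPM in liver, a 25.8-fold difference. Reads could have been divided between them, since 54.3% of the 50-base stretches of Gstp2 transcripts also occur in another gene, 49.1% in Gstp1. Among the microsomal transferases, Mgst1 stood at 3022, 3424 and 3622 TPM in liver, 15.7-fold above colon. Mgst2 and Mgst3 were colon genes at 262 to 305 and 516 to 722 TPM, and Mgst2 was 0.33, 0.12 and 0.41 TPM in liver.

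RECTAS against vehicle in liver gave the clearest pattern among the members. No member passed the adjusted threshold (0 of 44 tested), where 0.0167% of all 11944 genes tested changed, all of them higher. At an unadjusted p under 0.05, 16 of 44 members stood higher (36.4%) and 0 lower, against 3.59% of all genes higher and 8.03% lower. Of these 9 were antioxidant genes of 22 tested and 7 conjugation genes of 22 tested. Since the members were chosen with earlier results of these data known, shares of members set beside all genes only describe them. The 3 RECTAS libraries lay wholly above the 3 vehicle libraries in 17 members, 9 antioxidant and 8 conjugation, and wholly below in 0 of the 44 tested, against 5.75% and 13% of all genes. The median difference was 0.30 for antioxidant genes, with 19 of 22 above 0, and 0.10 for conjugation genes, with 13 of 22 above 0. Over all genes the median was -0.04 and 40% lay above 0. Without vehicle library 1 the medians were 0.19 and 0.23, in the opposite order, and the conjugation median was 0.03 without vehicle library 3, 0.07 without vehicle library 2 and 0.04 without RECTAS library 3. It was 0.17 without RECTAS library 1 and 0.18 without RECTAS library 2. Slc7a11, Abcc4, Cbr3, Gpx2 and Mgst2 were too low in liver to be tested.

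**Figure D2:**
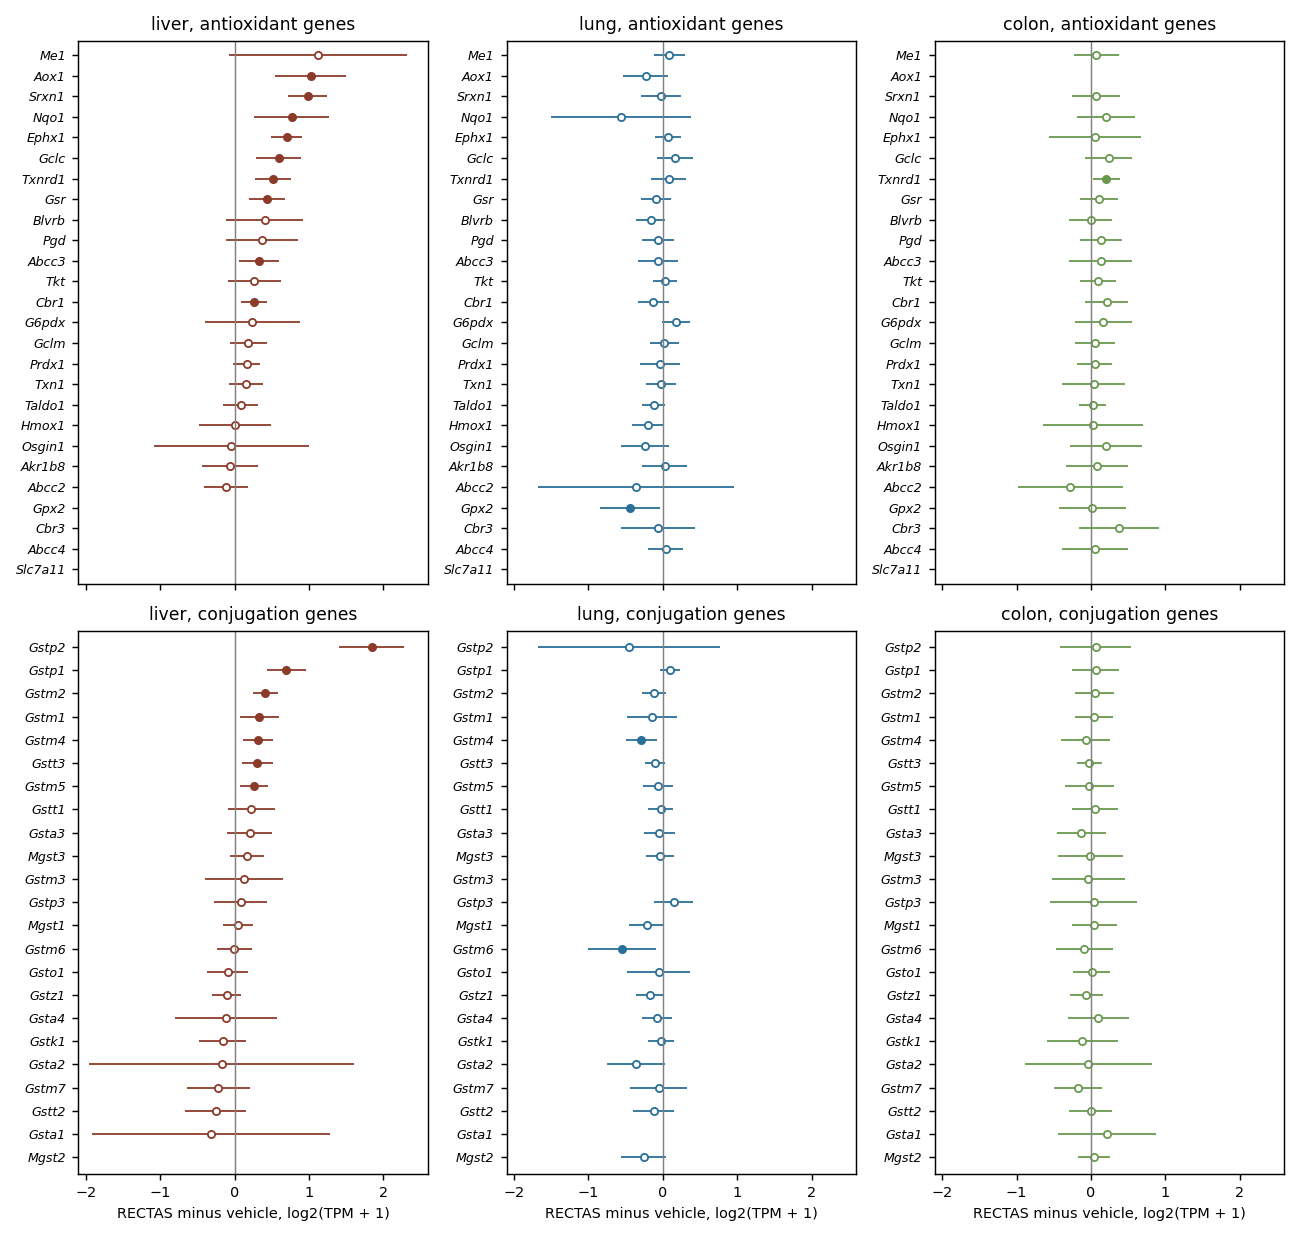
Difference RECTAS minus vehicle of each member on the log2(TPM + 1) scale in liver, lung and colon, with 95% limma intervals; filled points have an unadjusted p under 0.05, and members too low to be tested have no point. In liver 16 members are filled and all lie above 0, while lung holds 3 filled points below 0 and colon 1 above.

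Of the peroxide and thioredoxin genes in liver, Srxn1 stood at 13.8, 17.1 and 17.9 TPM under vehicle and 34.9, 31.4 and 32.4 TPM under RECTAS. The groups were well apart, 2.03-fold, with a log2 difference of 0.98 (SE 0.11, adjusted p = 0.0674 by limma). Txnrd1 stood at 39.7, 48.2 and 49.3 TPM under vehicle and 64.0, 62.1 and 70.1 TPM under RECTAS (1.43-fold, log2 difference 0.51, SE 0.10, adjusted p = 0.208 by limma). Their partners moved less: Prdx1 was 884 ± 38.9 TPM (SD, n = 3) under vehicle and 991 ± 64.0 TPM under RECTAS, and Txn1, thioredoxin, 215 ± 22.4 and 238 ± 11.8 TPM, with overlapping groups for both.

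For glutathione supply, both subunits of glutamate-cysteine ligase had higher means under RECTAS, with no overlap only for Gclc. The 2 were not tested against each other. Gclc stood at 61.6, 56.0 and 57.1 TPM under vehicle and 98.4, 71.9 and 96.8 TPM under RECTAS, with no overlap (1.53-fold, log2 difference 0.59, SE 0.13, adjusted p = 0.232 by limma). Gclm, whose promoter window above holds the motif, stood at 117, 150 and 141 against 162, 147 and 152 TPM, with overlap (log2 difference 0.18, 95% interval -0.07 to 0.43). Gsr stood at 23.2, 25.2 and 26.1 against 38.7, 31.2 and 32.3 TPM, 1.37-fold higher with no overlap (adjusted p = 0.255 by limma).

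Among the enzymes that act on quinones, carbonyls and epoxides, 4 of 6 stood apart and higher in liver; Akr1b8 overlapped and Cbr3 was too low to be tested, at 0.64, 0.52 and 0.82 TPM under vehicle and 0.42, 0.51 and 0.45 TPM under RECTAS, wholly below. Ephx1, which opens epoxides to diols, was 144, 165 and 157 TPM under vehicle and 272, 234 and 253 TPM under RECTAS (log2 difference 0.70, SE 0.09, adjusted p = 0.116 by limma). Aox1 was 10.5, 18.2 and 14.6 TPM and 34.7, 24.7 and 30.3 TPM, 2.07-fold higher (log2 difference 1.02, SE 0.20, adjusted p = 0.208 by limma). Nqo1, a common marker of NRF2 activity, was 7.80, 4.58 and 4.36 TPM under vehicle and 11.9, 8.54 and 9.57 TPM under RECTAS. Its lowest RECTAS value lay just above its highest vehicle value, from vehicle library 1 (1.79-fold, log2 difference 0.77, SE 0.21, adjusted p = 0.299 by limma). Cbr1, a carbonyl reductase, was 1.20-fold higher, with the same adjusted p.

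Several standard NRF2 targets did not differ detectably in liver. Hmox1 stood at 17.9, 12.04 and 15.3 TPM under vehicle and 13.1, 12.6 and 20.01 TPM under RECTAS, with a log2 difference of 0.00 and a 95% interval of -0.48 to 0.48. Osgin1, a growth inhibitor induced by oxidative stress, was 185, 90.4 and 47.3 TPM and 108, 87.2 and 76.8 TPM, and the spread under vehicle spanned all RECTAS values. Of the pentose phosphate pathway genes G6pdx, Pgd, Taldo1 and Tkt, and of Me1, 0 stood apart. Me1 was 17.3, 79.0 and 51.5 TPM under vehicle and 104, 68.6 and 108 TPM under RECTAS, so its log2 difference of 1.12 carried an SE of 0.51. Of the exporters, Abcc3 was 1.26-fold higher with no overlap (adjusted p = 0.379 by limma), and Abcc2 was 142 ± 17.4 and 131 ± 15.4 TPM (SD, n = 3).

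Gstp2 showed the largest liver difference of all members tested. It stood at 6.40, 7.30 and 7.95 TPM under vehicle and 22.2, 27.4 and 37.3 TPM under RECTAS, 4.02-fold higher with no overlap (log2 difference 1.84, SE 0.18, adjusted p = 0.0603 by limma). Gstp1, the main pi-class enzyme of liver, stood at 486, 425 and 395 TPM and 770, 629 and 719 TPM, 1.62-fold higher (log2 difference 0.70, SE 0.11, adjusted p = 0.150 by limma). The sum of both, which depends less on how shared reads were divided, was 492, 433 and 403 TPM under vehicle and 792, 657 and 757 TPM under RECTAS, 1.66-fold higher. Gstp3, which shares no 50-base stretch with either, was 55.2 ± 7.48 and 58.7 ± 9.58 TPM (SD, n = 3).

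The mu class divided in liver. Gstm2 stood at 84.0, 82.6 and 76.2 TPM under vehicle and 113, 105 and 107 TPM under RECTAS, 1.34-fold higher (log2 difference 0.41, SE 0.07, adjusted p = 0.163 by limma). Gstm1, Gstm4 and Gstm5 were 1.25-, 1.25- and 1.22-fold higher, each with no overlap. Gstm6 was 102 ± 8.62 and 102 ± 9.38 TPM (SD, n = 3), and Gstm3 and Gstm7 overlapped. All 7 genes lie in a cluster on chromosome 3, between 107895821 and 108044894 (GRCm38). The 3 whose groups overlapped, Gstm7, Gstm6 and Gstm3, follow one another there, between Gstm5 and Gstm2. For Gstm3 the overlap rested on vehicle library 1. It stood at 51.9, 30.9 and 28.1 TPM under vehicle and 36.9, 36.5 and 44.2 TPM under RECTAS. Gstm7 was also high in that library, at 81.5 against 51.9 and 54.6 TPM, and overlapped with or without it (57.9, 47.1 and 53.2 TPM under RECTAS). In the theta class, Gstt3 stood at 77.0, 78.4 and 70.4 TPM and 94.6, 85.5 and 100 TPM (1.24-fold, adjusted p = 0.299 by limma), while the groups of Gstt1 and Gstt2, on the same chromosome, overlapped.

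Mgst1, the most abundant transferase, and the alpha class had overlapping groups. Mgst1 was 3356 ± 306 TPM (SD, n = 3) under vehicle and 3443 ± 102 TPM under RECTAS, and Gsta3 1072 ± 154 and 1226 ± 123 TPM. Gsta2 stood at 79.5, 10.4 and 8.60 TPM under vehicle and 18.05, 14.5 and 19.6 TPM under RECTAS, so its mean was set by vehicle library 1. Gsta1 showed the same shape at 7.07, 0.37 and 0.65 TPM and 1.10, 0.38 and 2.26 TPM, and 90.5% of its 50-base stretches occur in other genes, Gsta2 among them. Gstz1, Gstk1 and Gsto1, of the zeta, kappa and omega classes, had overlapping groups with means 1.07 to 1.13 times higher under vehicle. The summed antioxidant level was 2207, 2414 and 2356 TPM under vehicle and 2883, 2560 and 2874 TPM under RECTAS, and the summed conjugation level 7990, 7817 and 7543 TPM and 8817, 8101 and 8879 TPM, with no overlap for either.

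**Figure D3:**
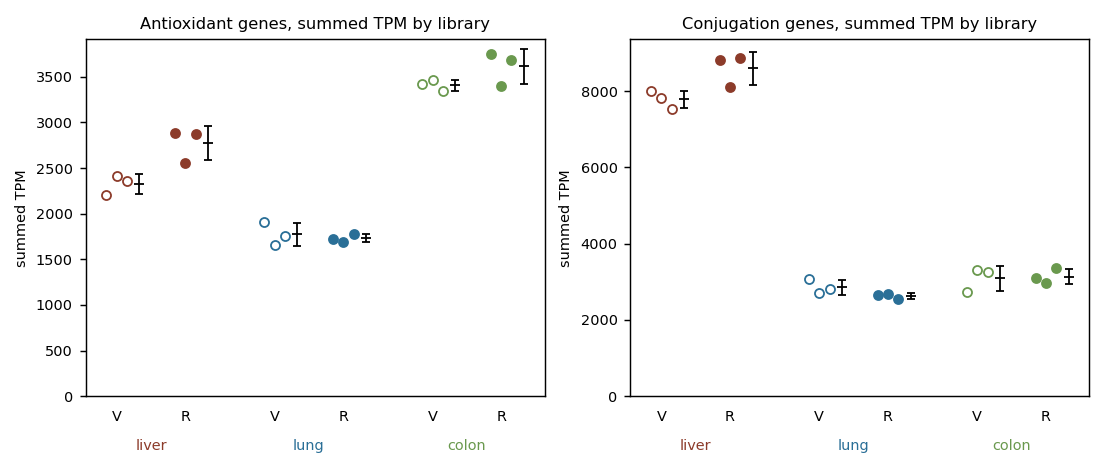
Summed TPM of the 26 antioxidant and the 23 conjugation genes in each library (open, vehicle; filled, RECTAS), with mean and SD of 3. In liver both sums lie higher in all RECTAS libraries, in colon both overlap, and in lung the conjugation sum lies between 2545 and 2676 TPM under RECTAS and 2698 and 3061 TPM under vehicle.

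1 vehicle library of liver stood apart. In vehicle library 1, 9 of 44 members (20.5%) lay more than 0.5 log2 units beyond both other vehicle libraries, against 8.09% of all genes: Gsta1, Gsta2, Gsta4, Gstm3, Gstm7, Nqo1 and Osgin1 high, and Blvrb and Me1 low. The summed level of 8 periportal hepatocyte markers was 7797 TPM in that library and 3941 and 4251 TPM in the others, with 4961 to 5775 TPM under RECTAS, and its part in the result was not tested. Without that library, 9 of 22 antioxidant and 10 of 21 conjugation members stood higher at an unadjusted p under 0.05, against 3.19% of all genes, and Srxn1 passed the adjusted threshold (log2 difference 0.88, adjusted p = 0.0408 by limma). Hepatocyte markers summed to 104644 to 118701 TPM under vehicle and 108710 to 123824 TPM under RECTAS, and leukocyte markers to 65.4 to 90.0 and 51.4 to 85.3 TPM. The list of 6 club cell markers did separate, at 540 to 611 and 630 to 647 TPM. In liver it consisted almost wholly of Cyp2f2, which periportal hepatocytes also express, and Aldh1a7, with Scgb1a1, which defines club cells, at most 7.07 TPM and Bpifa1 at 0.

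**Figure D4:**
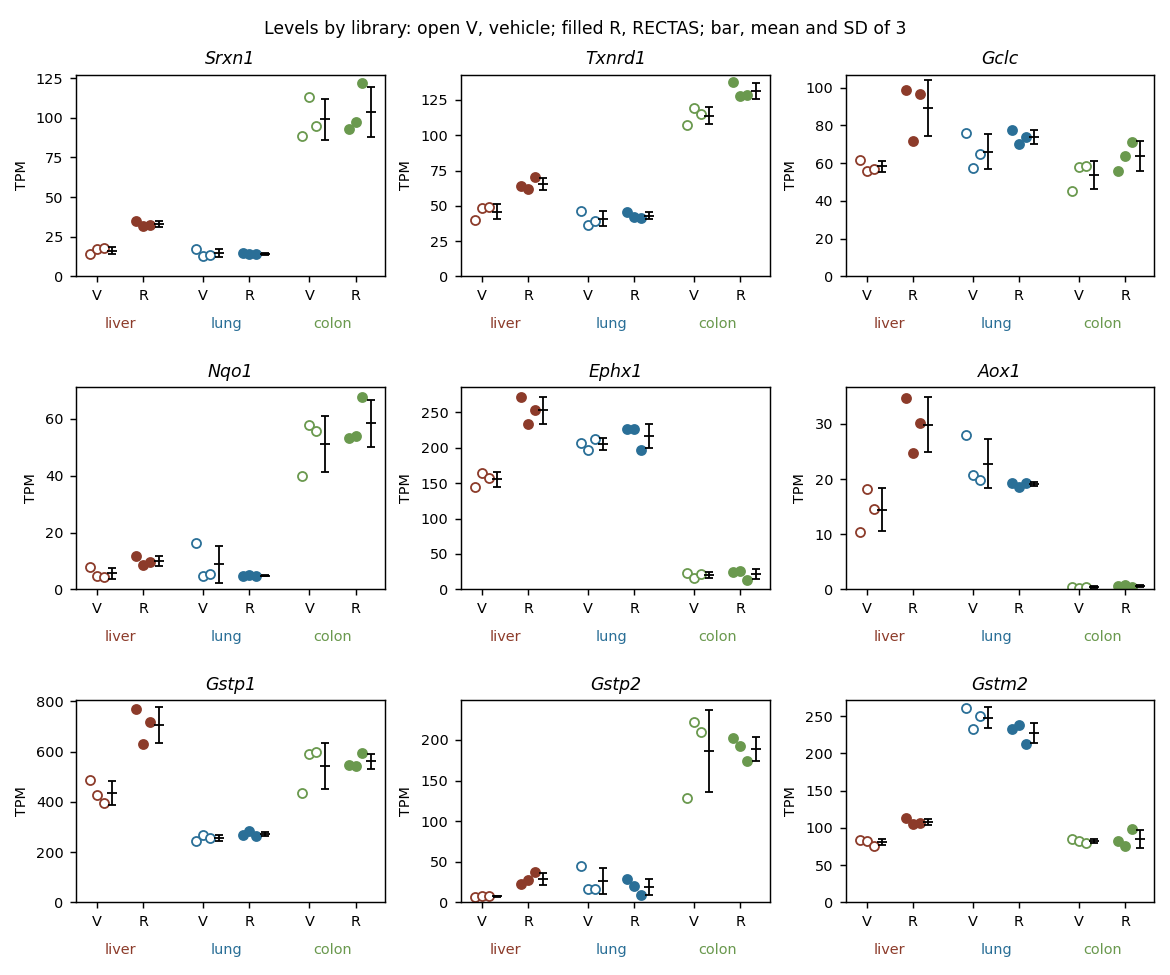
TPM of 9 members in every library of liver, lung and colon (open V, vehicle; filled R, RECTAS), with mean and SD of 3; each axis starts at 0. Only members whose liver RECTAS points lie above the vehicle points are shown, 9 of the 17 such members among 44 tested. Gclm and Hmox1, which overlapped in liver, are not shown. For Gstp2 the liver points run from 22.2 to 37.3 against 6.40 to 7.95 TPM. In lung none of the 9 lies apart in that direction.

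Whether any liver member passed the adjusted threshold depended on the scaling, the filter, the fit and the libraries used. After scaling by median ratios, 13 antioxidant and 7 conjugation members stood higher at an unadjusted p under 0.05, against 6.29% of all genes higher and 4.998% lower. Srxn1 (adjusted p = 0.0388) and Gstp2 (adjusted p = 0.0388, both by limma) then passed, as did 0.0419% of all genes. Over all 15 alternatives the adjusted p of Srxn1 ranged from 0.00200 to 0.448 and passed in 5, and that of Gstp2 ranged from 0.0365 to 0.249 and passed in 5. In 1 fit of all 18 libraries 8 members changed, all higher, where 134 of 11944 genes (1.12%) changed in either direction. They were Srxn1, Txnrd1, Gclc, Aox1, Gstp1, Gstp2, Gstm2 and Gstt3.

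In lung the members leaned the other way. No member passed the adjusted threshold (0 of 46 tested, where 0.00637% of all 15699 genes did), and at an unadjusted p under 0.05, 3 stood lower and 0 higher, against 1.88% of all genes lower and 10.7% higher. The count of 3 lower was 6 without vehicle library 2 or vehicle library 3, 2 without vehicle library 1 or RECTAS library 3, 3 without RECTAS library 2 and 0 without RECTAS library 1. Members higher were 2 antioxidant genes without RECTAS library 3, 1 conjugation gene without RECTAS library 2 and 1 antioxidant gene without vehicle library 1. Of all genes, 1.45% to 2.434% stood lower and 6.13% to 17.61% higher when 1 library was left out. The difference lay above 0 in 9 of 25 antioxidant genes (median -0.07) and in 2 of 21 conjugation genes (median -0.11), where 65.4% of all genes lay above 0 (median 0.06). The groups did not overlap in 6 members, 5 lower (Aox1, Gpx2, Gsta2, Gstm4 and Gstt3) and 1 higher (G6pdx), against 3.18% and 16.1% of all genes. After scaling by median ratios, 5 antioxidant and 8 conjugation members stood lower at an unadjusted p under 0.05, against 4.11% of all genes. Slc7a11, Gsta1 and Gstm3 were too low to be tested.

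Gstm4 had the smallest p in lung. It stood at 10.2, 9.0 and 10.6 TPM under vehicle and 7.43, 8.04 and 8.36 TPM under RECTAS, 1.25-fold lower with no overlap (log2 difference -0.29, SE 0.09, adjusted p = 0.314 by limma), the reverse of its liver difference. Gstm6 stood at 8.13, 6.50 and 10.3 TPM and 4.45, 6.82 and 4.83 TPM (log2 difference -0.54, adjusted p = 0.340 by limma), and 1 RECTAS library lay inside the vehicle range. Gpx2 was 49.8, 30.6 and 33.8 TPM and 27.2, 27.8 and 26.6 TPM (log2 difference -0.44, adjusted p = 0.363 by limma).

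Of the members that stood apart and higher in liver, Aox1, Gstm4 and Gstt3 stood apart and lower in lung. Aox1 was 27.9, 20.7 and 19.8 TPM under vehicle and 19.3, 18.6 and 19.3 TPM under RECTAS (log2 difference -0.23, adjusted p = 0.499 by limma). The groups of Gstp2 overlapped, at 45.2, 16.9 and 16.9 TPM and 28.6, 19.8 and 8.31 TPM. Among the 6 members given in every tissue, all had overlapping groups in lung. Srxn1 stood at 17.5, 13.0 and 13.7 TPM under vehicle and 15.01, 14.4 and 13.8 TPM under RECTAS (log2 difference -0.02, 95% interval -0.29 to 0.25). Txnrd1 was 40.7 ± 5.22 and 42.9 ± 2.34 TPM (SD, n = 3), Gclc 66.1 ± 9.24 and 73.8 ± 3.74 TPM, and Gclm 38.9 ± 2.02 and 39.5 ± 3.47 TPM. Hmox1 was 36.0 ± 3.96 and 31.1 ± 1.47 TPM. Nqo1 stood at 16.4, 4.69 and 5.43 TPM under vehicle and 4.68, 5.12 and 4.75 TPM under RECTAS. Its log2 difference of -0.56 rested on vehicle library 1 and was -0.05 without it.

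That vehicle library of lung stood apart in 5 of 47 members (10.6%, against 3.04% of all genes), high for Cbr3, Gpx2, Gstp2 and Nqo1 and low for Abcc2. Without it, 1 antioxidant member stood higher and 1 lower at an unadjusted p under 0.05, 1 conjugation member stood lower, against 6.238% of all genes higher and 1.903% lower, and the antioxidant median was 0.03. Lung Abcc2 lay low where hepatocyte markers were low: it was 0.04, 1.09 and 2.56 TPM under vehicle and 0.03, 0.18 and 2.01 TPM under RECTAS, where the hepatocyte markers summed to 30.5, 549 and 1548 TPM and 11.3, 71.5 and 618 TPM. Markers of club cells, the secretory cells of the airway, summed to 137910 to 156999 TPM under vehicle and 119280 to 127452 TPM under RECTAS, and alveolar type 2 markers to 36356 to 39937 and 41146 to 45002 TPM, with no overlap for either. Gene by gene, 2 of 6 club cell markers lay above 0 (median log2 difference -0.099), and 8 of 8 alveolar type 2 markers (median 0.239). Over all genes 65.4% lay above 0, and 0 markers of either list passed the adjusted threshold. The part of either cell type in the lower conjugation levels was not tested.

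In colon, where the antioxidant genes were highest, differences were small. No member passed the adjusted threshold (0 of 47 tested, and 0% of all 14282 genes), and 1 of 47 stood higher at an unadjusted p under 0.05, against 0.805% of all genes higher and 0.812% lower. That was Txnrd1, at 107, 119 and 115 TPM under vehicle and 138, 128 and 128 TPM under RECTAS, 1.15-fold higher with no overlap (log2 difference 0.21, SE 0.08, adjusted p = 0.99992 by limma). It no longer reached that level without vehicle library 1, vehicle library 3, RECTAS library 1 or RECTAS library 2. The same held after median ratio scaling, quantile normalisation or rescaling without mitochondrial and the 20 highest genes. It was also the only tested member whose groups did not overlap, against 3.43% of all genes higher and 2.01% lower. The difference lay above 0 in 22 of 24 antioxidant genes, with a median of 0.08, and in 11 of 23 conjugation genes, with a median of 0.00. Over all genes 57.2% lay above 0 (median 0.02). When 1 library was left out, the antioxidant count ran from 15 (without RECTAS library 1) to 21 of 24 (without RECTAS library 2). The conjugation count ran from 7 of 23 (without vehicle library 1) to 15 of 22 (without RECTAS library 2).

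Of the 6 members given in every tissue, all but Txnrd1 had overlapping groups in colon. Srxn1 stood at 88.6, 113 and 94.9 TPM under vehicle and 92.8, 97.1 and 122 TPM under RECTAS, with a 95% interval of -0.25 to 0.39 for the log2 difference. Gclc was 53.9 ± 7.47 and 63.6 ± 7.90 TPM (SD, n = 3), Nqo1 51.2 ± 9.95 and 58.4 ± 8.15 TPM, Gclm 99.5 ± 11.2 and 103 ± 11.5 TPM, and Hmox1 5.22 ± 2.62 and 5.01 ± 0.547 TPM. Gstp2, the leading gene in liver, stood at 128, 222 and 209 TPM and 202, 192 and 174 TPM. Vehicle library 1 lay low for Abcc2, Abcc3, Cbr3, Gsta1, Gsta2 and Gstp2 and high for Txn1, 7 of 47 members (14.9%, against 7.67% of all genes). In that library 6 smooth muscle markers summed to 5396 TPM, against 2022 and 1906 TPM in the other vehicle libraries, and colonocyte markers to 14279 TPM, against 32806 and 23061 TPM. Whether this bears on the colon differences was not tested.

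**Figure D5:**
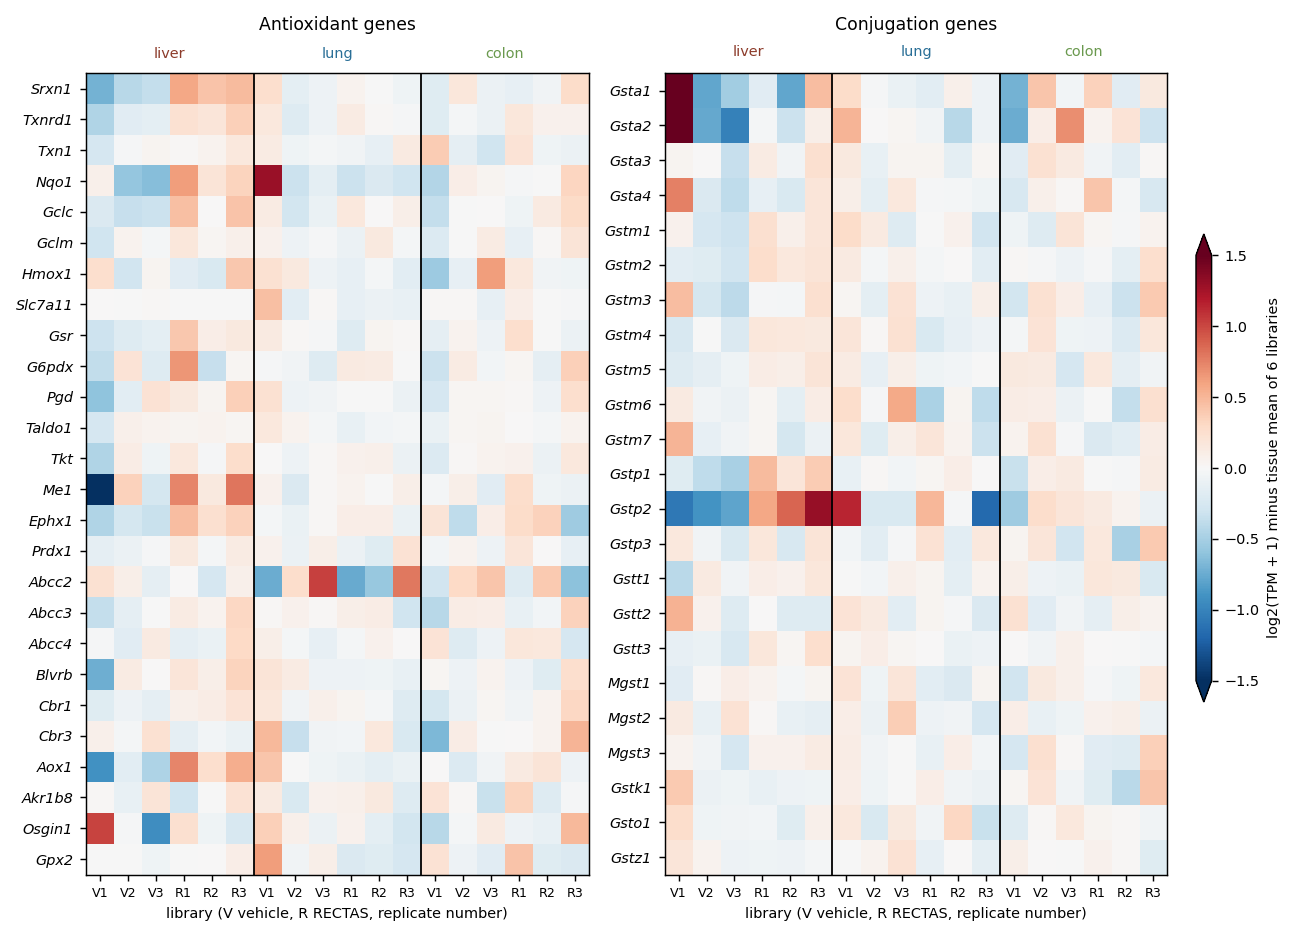
Deviation of each member in each library from the mean of the 6 libraries of its tissue, on the log2(TPM + 1) scale, with colours ending at 1.5 either way. The liver block shows the RECTAS libraries (R1 to R3) above the vehicle libraries (V1 to V3) for Srxn1, Txnrd1, Ephx1, Aox1, Gstp1 and Gstp2, and vehicle library 1 apart for Gsta1, Gsta2 and Me1.

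The difference between tissues in the response to RECTAS was tested directly. Between liver and lung 0 of 48 members passed the adjusted threshold, where 0.0228% of all 17537 genes did. At an unadjusted p under 0.05, 17 of 48 members had a larger difference in liver, 9 antioxidant and 8 conjugation, and 0 a smaller one, against 1.7% and 7.28% of all genes. By p-value Srxn1 came first, with a liver difference 1.004 larger than that in lung on the log2 scale (SE 0.18, adjusted p = 0.103 by limma), followed by Aox1 at 1.25 (adjusted p = 0.119 by limma) and Gstt3 at 0.42 (adjusted p = 0.137 by limma). By size Gstp2 was first, at 2.297 (SE 0.55, adjusted p = 0.189 by limma).

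Between liver and colon 0 of 48 passed, where 0.0285% of all genes did, and 10 of 48 had a larger difference in liver at an unadjusted p under 0.05, 5 of each kind, and 0 a smaller one, against 1.56% and 3.81% of all genes. Srxn1 again had the smallest p (0.92 larger in liver, SE 0.18, adjusted p = 0.176 by limma), then Gstp1 (0.63, adjusted p = 0.392 by limma) and Gstt3 (0.33, adjusted p = 0.559 by limma). Between lung and colon 0 of 48 passed, where 0.0114% of all genes did. Cbr1 alone reached an unadjusted p under 0.05, smaller in lung by 0.34 (adjusted p = 1 by limma), against 1.03% of all genes smaller and 2.19% larger in lung. These comparisons share the liver, lung or colon libraries and are not independent of each other or of the values within each tissue.

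The genes that control NRF2 were measured too, as a list of 10. In liver 0 of 10 passed, with 1 higher and 1 lower at an unadjusted p under 0.05, against 3.59% and 8.03% of all genes. Sqstm1, the p62 protein that binds KEAP1 and is itself an NRF2 target, stood at 250, 239 and 245 TPM under vehicle and 321, 300 and 320 TPM under RECTAS (log2 difference 0.36, SE 0.06, adjusted p = 0.170 by limma). Cul3, the scaffold of the ligase that destroys NRF2, was lower (log2 difference -0.26, adjusted p = 0.309 by limma). Nfe2l2 RNA was 36.2, 31.5 and 34.3 TPM and 33.4, 29.7 and 35.3 TPM, with overlap. Keap1 RNA was 22.9, 25.6 and 25.4 TPM and 27.4, 26.6 and 28.7 TPM, with no overlap (log2 difference 0.16, adjusted p = 0.499 by limma).

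In lung all 10 of these regulators had a difference above 0 and 5 stood higher at an unadjusted p under 0.05, against 65.4% and 10.7% of all genes, with 0 past the adjusted threshold. Maff, a small MAF partner, stood at 11.96, 13.5 and 13.2 TPM under vehicle and 21.1, 19.4 and 24.6 TPM under RECTAS (log2 difference 0.70, SE 0.10, adjusted p = 0.237 by limma). Mafk, another, was 30.2, 36.3 and 36.1 TPM and 48.4, 48.4 and 43.4 TPM (log2 difference 0.44, adjusted p = 0.264 by limma), and Nfe2l2 107, 112 and 113 TPM and 132, 120 and 134 TPM (log2 difference 0.22, adjusted p = 0.297 by limma). Cul3 and Nfe2l1 were the other two. The Nfe2l2 groups did not overlap in lung and overlapped in liver. In colon 8 of 10 lay above 0, against 57.2% of all genes, and 0 reached an unadjusted p under 0.05.

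A wider list of 24 peroxide and thiol defence genes outside the 49 had 0 past the threshold in every tissue. In liver 16 of 24 lay above 0 and 3 stood higher at an unadjusted p under 0.05, against 40% and 3.59% of all genes. Fth1 and Ftl1, the ferritin chains that store iron, and Glrx, a glutaredoxin, were the 3 (log2 differences 0.17, 0.27 and 0.57, adjusted p = 0.402, 0.409 and 0.408 by limma). Of 18 genes for glutathione synthesis and turnover, 14 were tested in liver, 7 lay above 0 (40% of all genes) and 0 passed. Gss, glutathione synthetase, and Slc3a2, the heavy chain of the cystine importer, stood higher at an unadjusted p under 0.05, as did 3.59% of all genes (log2 differences 0.25 and 0.29). In lung the peroxide and thiol list divided evenly, 12 above and 12 below 0, where 65.4% of all genes lay above.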

How the data were processed

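The authors deposited 1 table of TPM per library, 18 in all, with 55401 genes each. Library preparation selected polyadenylated RNA with a stranded kit, per the labels' protocols. HISAT2 2.2.0, RSEM 1.3.0 and the build GRCm38 appear in the submitters' processing notes with no step named for them. Each deposited TPM column sums to nearly the same total, so read depth is unknown and TPM carries no counting interval. How RSEM divided reads between near copies affects Gsta1, Gsta2, Gstp1, Gstp2 and Gstm3 most.

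From these values, log2(TPM + 1) was fitted with limma 3.58.1 (R 4.3.3) with a mean-variance trend, for genes that reached 1 TPM in 3 or more libraries of the fit. P-values are two-sided and were adjusted by Benjamini-Hochberg over all genes tested, with a threshold of 0.05. Each RECTAS comparison used 1 tissue, the tissue comparisons 1 fit of the 9 vehicle libraries, and the differences between tissues in response 1 fit of all 18. The fit was tested on simulated data. Fold values are ratios of mean TPM. Python 3.11.15 with pandas 2.3.3, numpy 2.4.6 and matplotlib 3.10.9 did the rest. Genes were located with GENCODE M21, which matched 55141 of the gene IDs.

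The members and gene lists were chosen with earlier results of these data known. Genes named under RECTAS were up to 6 of each kind with the smallest unadjusted p under 0.05 per tissue, and Srxn1, Nqo1, Gclc, Gclm, Hmox1 and Txnrd1 always. Further members were named after their values were seen. Alternatives changed the pseudocount, filter, scaling, fit and replicate block, and left out each library in turn. No 2 libraries held identical values.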

Additional observations from a re-analysis of the deposited data

How the results depend on the processing

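No member passed the adjusted threshold under RECTAS in lung or colon under any alternative run, and no member's difference named above as separate in liver changed sign. In liver 1 antioxidant gene passed, instead of 0, after median ratio scaling, quantile normalisation or rescaling without mitochondrial and the 20 highest genes, and 4 in 1 fit of all 18 libraries. Of all genes, 0.0419%, 0.0419% and 0.067% passed under those scalings and 1.12% in that fit, against 0.0167% in the fit used above. Leaving out 1 liver library gave 0 to 1, with 1 only without vehicle library 1, where 0.0509% of all genes passed. In liver 1 conjugation gene passed, instead of 0, with a filter of 5 TPM (0.0873% of all genes), median ratio scaling, quantile normalisation or that rescaling, and 4 in 1 fit of all 18 libraries. The cause was not tested. With a pseudocount of 5 TPM, 1 antioxidant gene, Aox1, differed between liver and lung in its response, as did 0.148% of all genes. Leaving out 1 library moved the liver median from 0.19 to 0.41 for antioxidant and from 0.03085 to 0.23473 for conjugation genes, the lung median from -0.09834 to 0.030533 and from -0.16 to -0.046, and the colon median from 0.045 to 0.13 and from -0.080683 to 0.054342.

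With the replicate number as a replicate block, 0 members passed in each RECTAS comparison. The medians could not change, since every group holds each number. At an unadjusted p under 0.05, 9 antioxidant and 7 conjugation members still stood higher in liver, against 3.592% of all genes. In lung 1 antioxidant member then stood higher and 3 lower, and 4 conjugation members lower. Of all genes in lung, 12.4% stood higher and 2.994% lower. Same-numbered vehicle and RECTAS libraries correlated at 0.0281, -0.0137 and -0.0212 in liver, 0.409, -0.0654 and 0.317 in lung and 0.354, -0.294 and 0.0386 in colon, so the numbers were not taken as pairs.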
